A study of Mus musculus with 196 samples.

Results

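The keratin-associated protein genes of the mouse were followed across non-anagen back, anagen back and tail skin. Members were all genes whose symbol starts with Krtap and that had a probe set naming a single symbol. They numbered 45 of the 18820 genes measured in this way, and they carried 22 subfamily numbers, the digits that follow Krtap in the symbol. RefSeq places 22 members on chromosome 16, 15 on chromosome 11, 5 on chromosome 7 and 3 on chromosome 10. Another 5 symbols, Krtap2-4, Krtap4-8, Krtap4-9, Krtap4-13 and Krtap9-1, were named only by probe sets shared between several genes and were not used here.

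Skin came from untreated mice aged 8 weeks, bred by crossing FVB/N females with Mus spretus males and mating the F1 daughters to FVB/N males, so that no 2 animals need share a genotype. Total RNA was hybridised from shaved back skin that the labels call non-anagen (85 arrays, 41 females and 44 males), from shaved back skin labelled anagen, when follicles grow a new shaft (14 arrays, 8 females and 6 males), and from tail skin (97 arrays, 48 females and 49 males). Tails carry no hair cycle label, and how the anagen state was determined is not given in the sources used here. If it was read from the expression of hair genes, the anagen comparison is not independent of it, which was not tested. Both tissues were available from 82 mice with non-anagen and 14 mice with anagen back skin, and each array is 1 tissue of 1 mouse.

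Keratin-associated proteins are the matrix in which the keratin filaments of the hair shaft are embedded, and cysteines in many of them are cross-linked to the filaments as the shaft hardens. They are grouped by composition into high glycine-tyrosine, high-sulfur and ultra-high-sulfur proteins. The genes lie in clusters, are small, and are switched on in the cortex or cuticle of the shaft as its cells leave the hair matrix of a growing follicle, whereas a follicle at rest makes no new shaft. The inner root sheath, made of other cells with keratins and trichohyalin of their own, surrounds the shaft and is also formed in growing follicles.

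RefSeq held a promoter window for 41 of the 45 members (build GRCm38.p6), and the 250 bases before the annotated start were examined. Of these, 6 are printed, 5′ to 3′ on the strand of the gene, because the results turn on these genes: Krtap13, which was high in tail only, and its neighbour Krtap13-1 (chromosome 16); Krtap31-1 and Krtap31-2, which were higher in anagen back than in tail (chromosome 11); and Krtap8-1 and Krtap15, which had the largest differences in anagen back (chromosome 16). The capitals mark a TATAA, which begins at -49, -52, -30, -30, -29 and -44 from the annotated start in the order Krtap13, Krtap13-1, Krtap31-1, Krtap31-2, Krtap8-1 and Krtap15. The windows are chr16:88751629-88751878 on the minus strand for Krtap13, chr16:88728612-88728861 on the plus strand for Krtap13-1, chr11:99907670-99907919 on the plus strand for Krtap31-1, chr11:99936041-99936290 on the plus strand for Krtap31-2, chr16:89487953-89488202 on the minus strand for Krtap8-1 and chr16:88828759-88829008 on the plus strand for Krtap15.
Krtap13: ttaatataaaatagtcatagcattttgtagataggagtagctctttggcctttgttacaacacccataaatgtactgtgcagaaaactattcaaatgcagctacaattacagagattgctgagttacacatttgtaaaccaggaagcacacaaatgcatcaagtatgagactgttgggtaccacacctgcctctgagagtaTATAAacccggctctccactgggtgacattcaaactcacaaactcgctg
Krtap13-1: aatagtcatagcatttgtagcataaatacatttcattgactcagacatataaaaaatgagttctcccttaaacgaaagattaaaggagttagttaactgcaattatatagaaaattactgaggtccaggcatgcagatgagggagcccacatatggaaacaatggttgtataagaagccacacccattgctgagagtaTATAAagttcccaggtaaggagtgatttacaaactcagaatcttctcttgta
Krtap31-1: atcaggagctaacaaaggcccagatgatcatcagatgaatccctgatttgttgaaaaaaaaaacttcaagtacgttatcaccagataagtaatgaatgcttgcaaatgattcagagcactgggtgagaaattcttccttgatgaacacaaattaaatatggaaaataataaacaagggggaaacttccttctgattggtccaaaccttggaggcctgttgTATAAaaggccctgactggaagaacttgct
Krtap31-2: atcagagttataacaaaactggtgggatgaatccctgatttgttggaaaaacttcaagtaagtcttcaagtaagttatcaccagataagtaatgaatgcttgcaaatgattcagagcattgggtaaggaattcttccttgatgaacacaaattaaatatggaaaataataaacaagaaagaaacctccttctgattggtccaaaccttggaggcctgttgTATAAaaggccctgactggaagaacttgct
Krtap8-1: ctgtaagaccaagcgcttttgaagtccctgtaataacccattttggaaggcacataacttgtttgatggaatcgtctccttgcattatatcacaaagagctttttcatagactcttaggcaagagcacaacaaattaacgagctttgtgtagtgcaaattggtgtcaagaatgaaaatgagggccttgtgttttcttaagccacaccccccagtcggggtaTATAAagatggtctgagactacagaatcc
Krtap15: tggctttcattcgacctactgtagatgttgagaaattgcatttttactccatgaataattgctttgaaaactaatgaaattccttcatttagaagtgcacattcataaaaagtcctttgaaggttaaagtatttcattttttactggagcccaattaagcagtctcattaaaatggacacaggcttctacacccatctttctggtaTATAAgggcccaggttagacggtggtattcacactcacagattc

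TATAA stood on the sense strand between 60 and 15 bases before the start in 35 of the 41 members (85.4%), against 5.3% of all 27025 windows. CTTTGA, the core of a Lef1 or Tcf site, was present on either strand in 11 members (26.8%), against 3797 of all 27025 windows. TTTAT, a core bound by Hoxc13, was found on either strand without overlapping TATAA in 18 members (43.9%), against 31.5% of all windows. The median GC content was 40.4% in members and 52.0% in all windows. All 6 printed windows hold TATAA, and of these only Krtap15 holds CTTTGA, whereas each except Krtap8-1 holds TTTAT. These matches describe letters in the window, not sites in use. The Krtap31-1 and Krtap31-2 windows were 86.9% identical, the second highest of the 820 pairs after Krtap19-1 and Krtap19-2 (90.6%), and Krtap13 and Krtap13-1 were 58.4% identical, against a median of 51.5% over all pairs.

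Values are log2 expression from RMA. The medians of single arrays lay between 5.67 and 6.03. Differences are limma estimates on the log2 scale, positive where the first-named group is higher, and calls required a Benjamini-Hochberg adjusted p under 0.05 over all genes together with a difference of at least 1, that is 2-fold. Each fit takes 1 residual spread per gene for all its groups. Where a gene varies more over the few anagen arrays, its SEs and p-values in comparisons with anagen back are therefore too small. The anagen arrays of mice 1014, 1020 and 1057 stood apart: the mean of their inner root sheath genes (5.91, 5.97 and 5.81) did not exceed the highest non-anagen array (6.11), whereas the other anagen arrays reached up to 11.44. All anagen arrays were in batch 1, with 75 of the non-anagen arrays, and tails were in batches of their own, so tissue and batch cannot be told apart. RNA came from whole skin, in which fewer cells of a type and less RNA per cell cannot be told apart. Levels of different genes were not compared with each other, because each rests on its own probe set. In non-anagen back the means of 37 members lay below the median of all gene means (6.49), and those of 8 at or above it. How far these starting levels shaped the sizes of differences, and so the medians by class, was not tested.

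In anagen back skin, 41 of the 45 members were higher than in non-anagen back skin and none was lower. Of all genes, 0.68% were called higher and 0.00531% lower. The median difference over the members was 2.91, against -0.02 over all genes, and called differences ran from 1.38 for Krtap17-1 to 5.46 for Krtap15. With no limit on size 44 members passed (4.11% of all genes). The 4 members not called were Krtap13 (0.08, SE 0.10, adjusted p = 0.748), and, under the size limit with adjusted p under the threshold, Krtap5-3 (0.78, adjusted p = 0.000327), Krtap3-2 (0.94, adjusted p = 1.48e-08) and Krtap12-1 (0.99, adjusted p = 4.31e-06).

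The 14 members of the high glycine-tyrosine subfamilies 6, 7, 8, 19, 20 and 21, small proteins rich in these amino acids, were all called, with differences from 2.62 to 5.38 and a median of 4.00. Krtap8-1 (probe set 10440727) lay between 3.48 and 6.48 with a median of 4.51 in non-anagen back, between 4.89 and 12.79 with a median of 10.94 in anagen back and between 9.94 and 12.63 with a median of 12.01 in tail. All but 1 anagen array exceeded every non-anagen array, and the tails did not overlap with non-anagen back. The difference for Krtap8-1 was 5.38 in anagen back (SE 0.32, adjusted p = 2.19e-27) and 7.22 in tail (SE 0.09, adjusted p = 2.68e-141). Krtap7-1 ranged from 4.31 to 7.01 (median 5.22) in non-anagen back, from 5.36 to 13.12 (median 11.12) in anagen back and from 11.02 to 13.16 (median 12.66) in tail, with the same 13 of 14 anagen arrays and all tails above every non-anagen array; its differences were 5.08 (SE 0.30) and 7.29 (SE 0.07). Krtap6-1 ranged from 3.10 to 6.21 (median 4.36), from 4.20 to 12.21 (median 9.49) and from 10.74 to 12.70 (median 11.99) in the same order. Its tails were the most even of this class, with an SD of 0.27, and its differences were 4.47 (SE 0.33) and 7.57 (SE 0.07).

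Subfamily 19 is the largest, with 6 members on chromosome 16. Its differences in anagen back ran from 2.91 for Krtap19-9b to 4.96 for Krtap19-1, and in tail from 3.92 to 6.13 for the same genes. Krtap19-1 lay between 3.61 and 7.07 (median 4.45) in non-anagen back, between 4.79 and 12.57 (median 10.35) in anagen back and between 5.04 and 12.13 (median 11.03) in tail. Here 11 anagen arrays and 95 tails exceeded every non-anagen array, so that a few tails overlapped with non-anagen back. Krtap20-2 ranged from 5.96 to 9.23 (median 7.43), from 6.63 to 13.29 (median 10.22) and from 8.14 to 12.84 (median 11.51) in the same order. Krtap21-1 ranged from 3.63 to 5.94 (median 4.42), from 4.38 to 10.84 (median 8.81) and from 9.46 to 12.03 (median 11.19). In Krtap21-1, 79 of the 97 tails exceeded every anagen array as well.

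Of the 9 members assigned here to the high-sulfur class, in subfamilies 1, 3, 11 and 13, 7 were called higher in anagen back, with a median difference over the 9 of 2.73. Krtap1-5 lay between 3.61 and 5.85 (median 4.66) in non-anagen back, between 4.78 and 11.20 (median 8.36) in anagen back and between 5.03 and 10.28 (median 8.73) in tail. Krtap1-4, with the larger tail difference of the subfamily (4.46), ranged from 4.34 to 6.21 (median 5.005), from 5.04 to 11.02 (median 8.07) and from 5.17 to 11.21 (median 9.55). In both, anagen back and tail covered much the same range. Krtap3-3 differed in this respect: it lay between 4.36 and 7.10 (median 5.63) in non-anagen back, between 5.77 and 11.72 (median 9.51) in anagen back and between 10.66 and 12.55 (median 12.10) in tail, and 54 tails exceeded every anagen array. Krtap11-1, a single-gene subfamily, ranged from 4.09 to 6.26 (median 5.07), from 5.09 to 12.08 (median 8.90) and from 5.48 to 11.83 (median 10.24), with differences of 3.51 (SE 0.28) in anagen back and 4.99 (SE 0.13) in tail. Krtap3-2, which missed the size limit in anagen back, lay between 6.20 and 8.41 (median 7.72), between 7.42 and 9.85 (median 8.28) and between 8.07 and 9.89 (median 9.14). Its tails overlapped with non-anagen back in 2 of 97 arrays although its tail difference, 1.55 (SE 0.05, adjusted p = 3.61e-70), was the smallest of those called.

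Of the 12 members of the ultra-high-sulfur subfamilies 4, 5, 9 and 17, which are especially rich in cysteine, 11 were called higher in anagen back, with a median difference over the 12 of 2.33. Krtap4-16 lay between 3.62 and 5.71 (median 4.38) in non-anagen back, between 4.24 and 11.52 (median 8.51) in anagen back and between 5.57 and 11.30 (median 9.47) in tail. Its SD over anagen arrays, 2.74, was the highest of all members. Krtap5-2 ranged from 3.92 to 6.97 (median 5.69), from 5.74 to 10.996 (median 8.94) and from 6.54 to 12.61 (median 11.35), and 62 tails exceeded every anagen array. Krtap5-3, which missed the size limit in anagen back, ranged from 6.56 to 9.21 (median 8.16), from 7.60 to 10.09 (median 9.14) and from 7.94 to 12.22 (median 11.01), and 75 tails exceeded every anagen array. Krtap9-3 ranged from 5.35 to 7.96 (median 6.43), from 6.44 to 12.17 (median 9.21) and from 7.52 to 11.97 (median 10.39), and Krtap17-1 from 7.56 to 9.65 (median 8.77), from 8.59 to 12.09 (median 9.69) and from 8.93 to 12.82 (median 11.45). Krtap17-1 had the smallest difference called in anagen back. Subfamilies 4 and 5 have near-identical genes, and the annotation places Krtap4-6 and all 5 members of subfamily 5 also on probe sets shared with other genes, so that hybridisation across members could not be separated.

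The other subfamilies were not assigned to a class here. Some of them may belong to a class above, so counts and medians by class cover only the assigned members. Krtap15 (probe set 10436752) had the largest difference in anagen back, 5.46 (SE 0.32, adjusted p = 4.33e-28). It lay between 3.24 and 6.35 (median 4.14) in non-anagen back, between 4.38 and 12.31 (median 10.54) in anagen back and between 3.88 and 12.03 (median 11.26) in tail, where 1 tail fell within the non-anagen range. Krtap16-3 ranged from 2.96 to 4.75 (median 3.61), from 3.13 to 10.07 (median 6.94) and from 4.87 to 9.33 (median 7.94), so that its tails lay just above non-anagen back with a gap of 0.12. Krtap14, which lies next to Krtap13 in the order of members along the chromosome, ranged from 3.41 to 5.68 (median 4.64), from 4.77 to 11.20 (median 7.96) and from 4.66 to 10.45 (median 8.71). Krtap10-4 ranged from 4.16 to 6.94 (median 5.45), from 5.25 to 10.66 (median 8.20) and from 5.51 to 11.46 (median 9.87). Krtap12-1, which missed the size limit in anagen back, ranged from 4.46 to 6.29 (median 5.10), from 4.88 to 8.91 (median 5.74) and from 5.80 to 9.87 (median 7.98), and 5 anagen arrays exceeded every non-anagen array. Krtap24-1 ranged from 3.93 to 5.66 (median 4.66), from 4.69 to 10.75 (median 7.05) and from 5.01 to 11.46 (median 9.65), and Krtap26-1 from 3.87 to 5.81 (median 4.60), from 4.29 to 10.40 (median 5.71) and from 7.48 to 10.62 (median 9.50). In Krtap26-1 all tails but only 6 anagen arrays exceeded every non-anagen array.

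**Figure D1:**
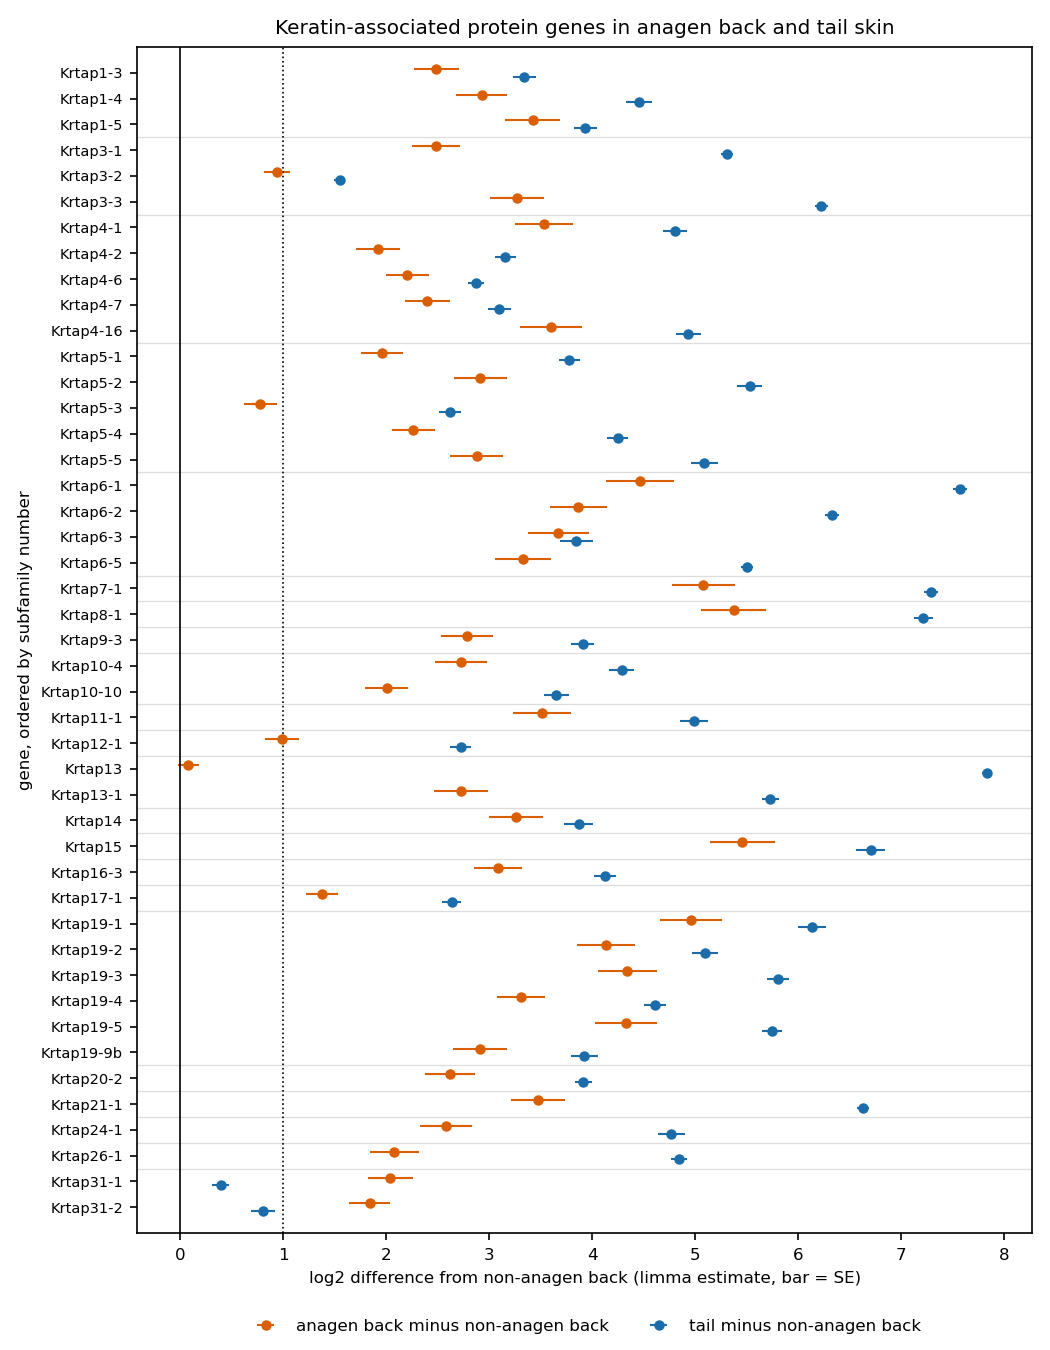
Differences of the 45 members from non-anagen back skin on the log2 scale, in anagen back (orange) and in tail (blue), with the limma SE as a bar; genes are ordered by subfamily number, the solid line is 0 and the dotted line the size limit of 1. Krtap13 lies at 0.08 in anagen back and 7.84 in tail, and Krtap31-1 and Krtap31-2 are the members whose tail difference is below 1.

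The anagen arrays differed widely from each other. The SD of a member over the 14 anagen arrays had a median of 2.18, against 0.31 for all genes, whereas over non-anagen arrays the medians were 0.40 and 0.28. The SEs and p-values given for comparisons with anagen back do not carry this wider spread. At least 9 of the 14 anagen arrays lay above every non-anagen array for 37 members, against 0.377% of all genes. In mice 1013, 1056, 1069 and 1083, 44 of the 45 members exceeded every non-anagen array, and the median member stood 4.70 to 5.95 above its non-anagen mean. Mice 1080 (43 members), 1101 (42), 1082 (41), 1086 (38) and 1024 (36) followed, and mouse 1039 had 24. In these 10 arrays the share of all genes above every non-anagen array ran from 0.855% in mouse 1082 to 9.85% in mouse 1039. In the remaining 4 arrays few members were high: 8 in mouse 1020, 7 in mouse 1111, 3 in mouse 1057 and 1 in mouse 1014, Krtap3-2. Of all genes, 0.834%, 1.17%, 0.691% and 1.69% lay above every non-anagen array in these 4 arrays, so that the share in mouse 1014, 1 of 45 members, is near that of all genes.

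The members that were high in these 4 arrays were not the same in each. Krtap7-1 and Krtap8-1 were above every non-anagen array in mice 1020, 1057 and 1111, and Krtap15 in mice 1020 and 1057. Mouse 1020 also had Krtap16-3 and Krtap19-1 to Krtap19-4 above that range. Mouse 1111 had Krtap6-1, Krtap6-3, Krtap6-5, Krtap11-1 and Krtap20-2 above it but not Krtap15, which stood at 6.13. Krtap8-1 stood at 7.80 in mouse 1020, 6.95 in mouse 1057, 8.04 in mouse 1111 and 4.89 in mouse 1014, against 12.79 in mouse 1083. The inner root sheath mean was 6.78 in mouse 1111 and 6.57 in mouse 1039, above the non-anagen range, and within it in mice 1014, 1020 and 1057. Without those 3 arrays 44 members were called higher than non-anagen back, Krtap3-2 (1.04), Krtap5-3 (1.01) and Krtap12-1 (1.15) being added. Of all genes, 177 were called higher, against 128 with all arrays. The omitted arrays were picked for low follicle genes, so their omission raises anagen values and is not an independent check.

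**Figure D2:**
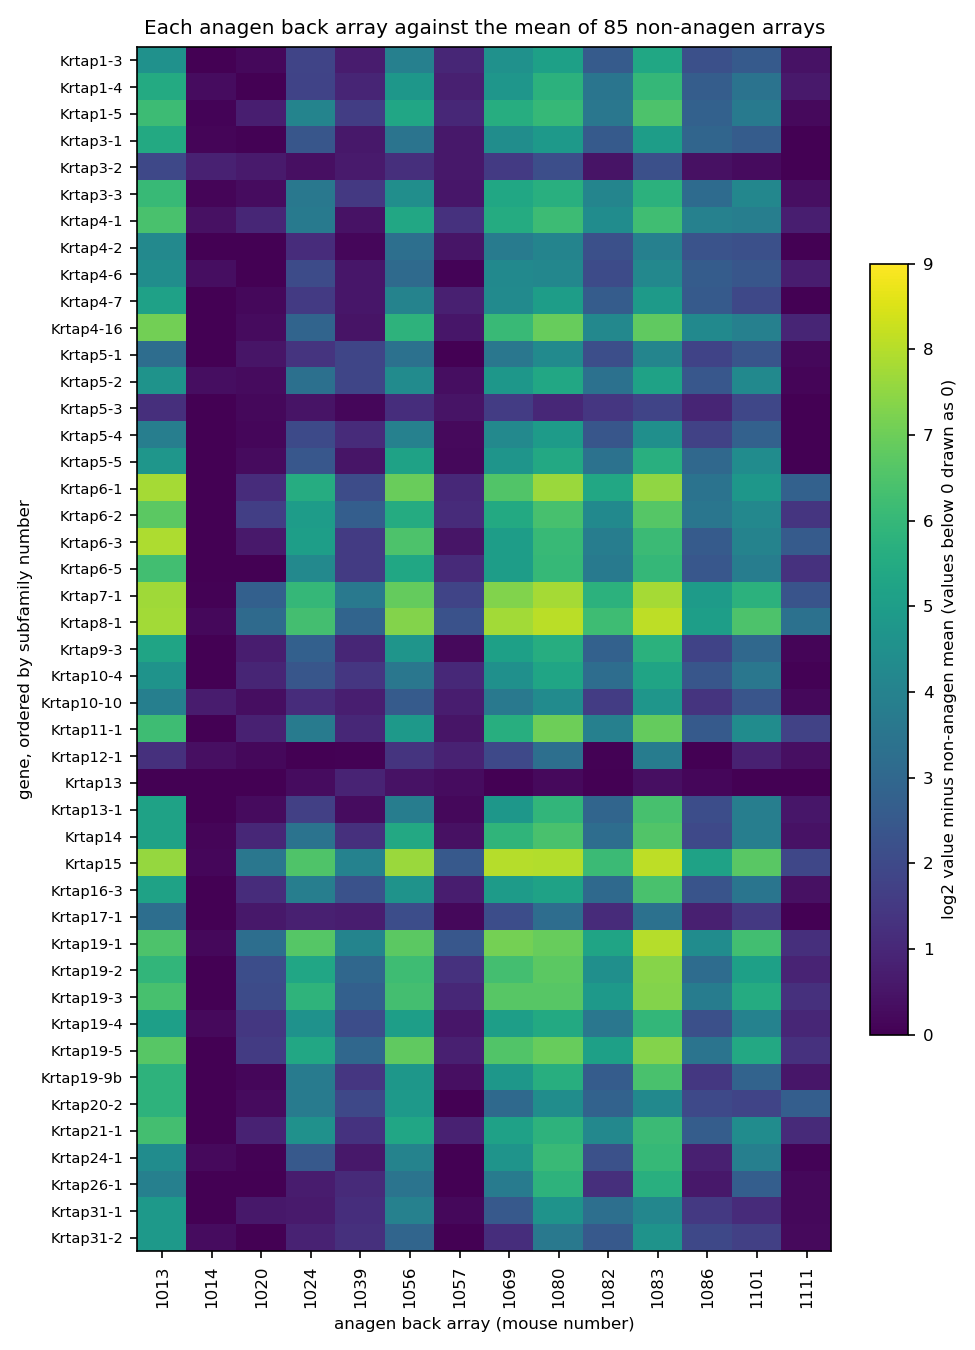
Each anagen back array (left to right, by mouse number) against the mean of the 85 non-anagen arrays for each member (top to bottom, by subfamily), as a log2 difference with values below 0 drawn as 0. Mice 1014, 1020, 1057 and 1111 are dark for most members, and Krtap13 is dark in every array.

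In tail skin, 43 of the 45 members were higher than in non-anagen back skin and none was lower, with a median difference of 4.61, against -0.0005 over all genes. Of all genes, 3.94% were called higher and 2.02% lower. With no limit on size all 45 passed, but so did 43.8% of all genes. The comparison shares its non-anagen arrays with the anagen comparison. By class, the median difference was 5.78 in the 14 high glycine-tyrosine members, 4.99 in the 9 high-sulfur members, 3.84 in the 12 ultra-high-sulfur members and 4.00 in the 10 others. Krtap31-1 and Krtap31-2, taken up further on, were the 2 members not called. Markers of other cells moved with tissue as well: all 7 melanocyte genes were called higher in tail, with list means from 5.28 to 8.81 in tail and from 4.97 to 6.26 in non-anagen back, all 5 skeletal muscle genes were called lower, from 5.02 to 8.88 against 5.40 to 11.66, and 4 of 5 immune genes were called lower, from 6.90 to 8.15 against 8.32 to 10.23. Of 8 epidermal genes 1 was called higher and 1 lower, and none of 5 dermal, 5 adipocyte or 4 endothelial genes was called. In the anagen comparison 1 of the 7 melanocyte genes was called higher, with list means from 5.19 to 7.86 in anagen back, and no gene of the other lists of skin cells was called. With no limit on size 6 of the 7 melanocyte genes were higher and 5 of the 8 epidermal genes lower in anagen back, against 4.11% and 3.59% of all genes. The part of these cells in the results was not tested.

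Members differed in how even they were over tails. For 15 members every tail lay above every non-anagen array, against 1.42% of all genes, and for no member did every tail lie below, against 0.478% of all genes. These were Krtap3-1, Krtap3-3, Krtap6-1, Krtap6-2, Krtap6-5, Krtap7-1, Krtap8-1, Krtap13, Krtap13-1, Krtap16-3, Krtap19-3, Krtap19-4, Krtap19-5, Krtap21-1 and Krtap26-1, that is 9 high glycine-tyrosine members, 4 high-sulfur members, none of the ultra-high-sulfur members and 2 of the others. Their SD over tails ran from 0.23 to 0.97 with a median of 0.45. In the other 30 members it ran from 0.33 to 1.46 with a median of 1.02, against 0.21 for all genes. Apart from Krtap31-1 and Krtap31-2, these 30 had 92 to 96 of 97 tails above every non-anagen array.

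The overlap came from few animals. In 90 tails at least 43 members exceeded every non-anagen array, and the lowest counts were 17 in the tail of mouse 1080 and 30 in the tail of mouse 1084. Of all genes, 14.9% and 13.7% exceeded every non-anagen array in these 2 tails, and 7.73% to 19% did over all tails. In these tails Krtap13 stood at 11.89 and 12.11, Krtap6-1 at 11.96 and 12.04 and Krtap7-1 at 12.43 and 12.49, all within the range of the other tails. Krtap19-1 stood at 5.04 and 6.24 and Krtap6-3 at 5.48 and 5.23, within the range of non-anagen back. Krtap15 stood at 3.88, within that range, and at 6.93, above it but below its tail median. The inner root sheath mean of these tails was 5.69 and 6.64, the former the lowest of all tails. The tails of mice 1092 (6.47) and 1081 (6.63) had lower sheath means than that of mouse 1084. They had 40 and 43 members above every non-anagen array. The back skin of mouse 1080 was labelled anagen and had 43 members above every non-anagen array, so that within this mouse Krtap15 was at 12.16 in back and 3.88 in tail while Krtap13 was at 4.39 in back and 11.89 in tail. Leaving out both tails left 43 members called.

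**Figure D3:**
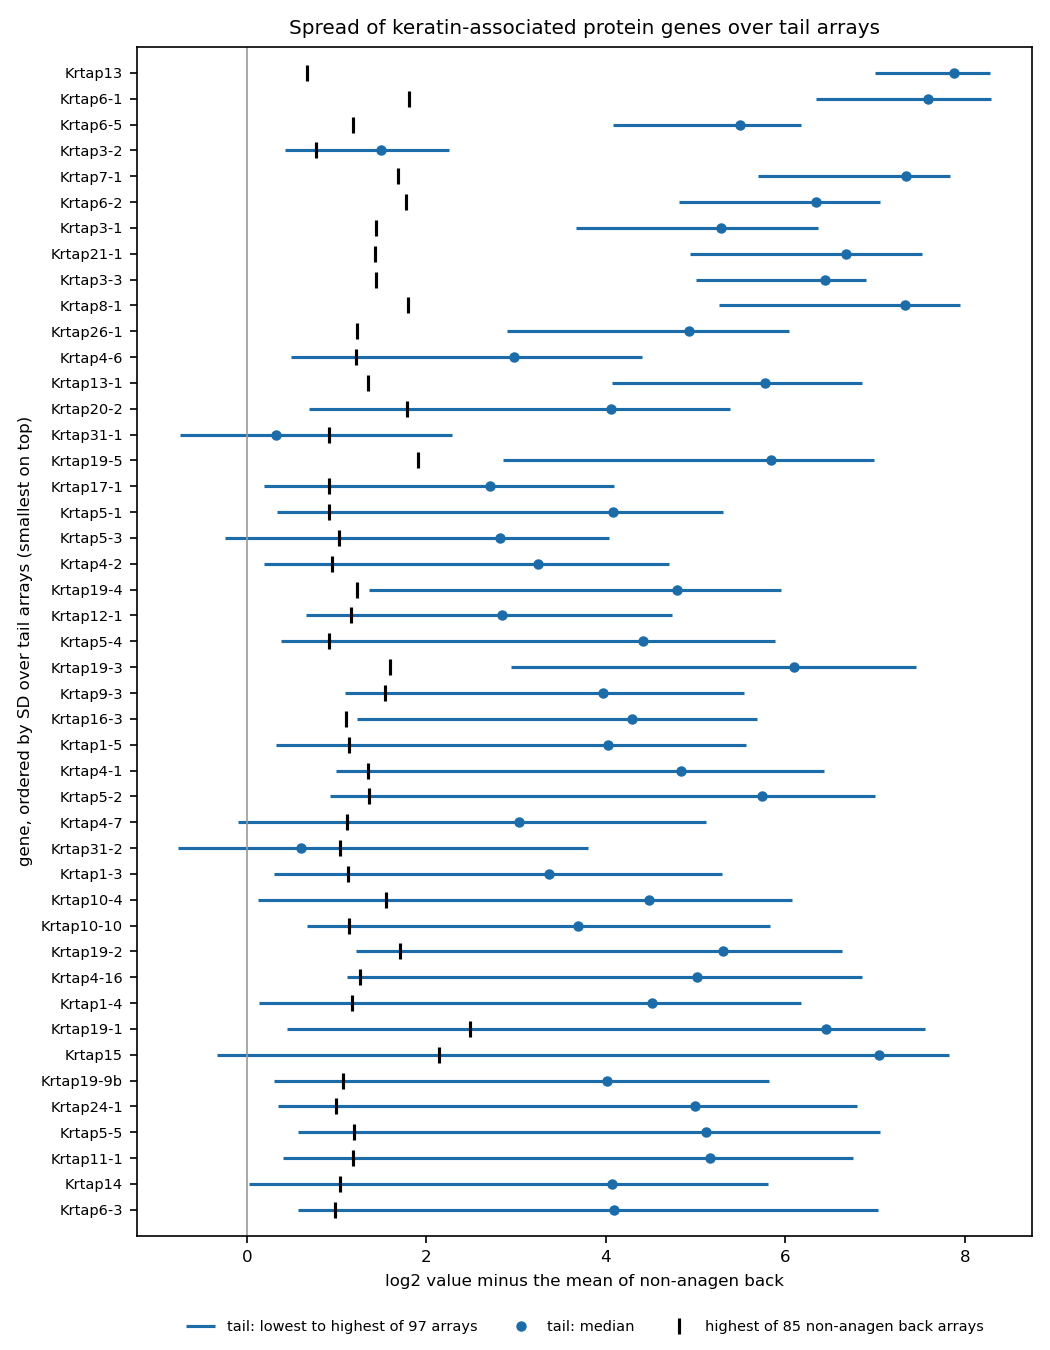
For each member, the lowest to highest tail array (line) and the tail median (point) as a log2 difference from the mean of non-anagen back, with the highest non-anagen array as a black tick; members are ordered by their SD over tails, smallest on top. Krtap13 and Krtap6-1 are the most even, with SDs of 0.23 and 0.27, and Krtap6-3 the least, with 1.46.

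Tail and anagen back skin were compared directly, since both are high for most members. Over all arrays 36 members were higher in tail (3.32% of all genes) and 2 were lower (1.68% of all genes), with a median difference of 1.499; with no limit on size 40 were higher (39.8% of all genes). The count rested in part on the anagen arrays with low inner root sheath genes, mice 1014, 1020 and 1057. Without them, 18 members were higher and 2 lower (660 and 360 of all genes), with a median difference of 0.71. Mouse 1111, with 7 members above every non-anagen array against 8 in mouse 1020, was kept. The omitted arrays were picked for low follicle genes, so their omission raises anagen values and is not an independent check. Within the 14 mice that had both tissues, with mouse as a replicate block, 18 were higher and 1 was lower (610 and 306 of all genes), with a median of 1.00. In all 3 fits 17 members were higher in tail and 1, Krtap31-1, was lower. The 17 were Krtap3-1, Krtap3-3, all 5 members of subfamily 5, Krtap6-1, Krtap6-2, Krtap6-5, Krtap7-1, Krtap10-10, Krtap12-1, Krtap13, Krtap13-1, Krtap21-1 and Krtap26-1. This comparison shares arrays with both of the others. Markers of other cells moved with it too: all 7 melanocyte genes were called higher in tail than in anagen back, and all 5 skeletal muscle genes and 4 of 5 immune genes lower. With no limit on size 4 of 5 adipocyte and 3 of 4 endothelial genes were lower and 6 of 8 epidermal genes higher. By that rule 36% of all genes were lower and 39.8% higher, and these lists are short. Their part in the result was not tested.

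The largest differences in favour of tail were Krtap13 (7.74), Krtap21-1 (3.18), Krtap6-1 (3.10), Krtap13-1 (3.04), Krtap3-3 (2.99), Krtap3-1 (2.84), Krtap26-1 (2.81), Krtap5-2 (2.66), Krtap6-2 (2.48) and Krtap5-5 (2.29). Without mice 1014, 1020 and 1057 these ranged from 1.49 for Krtap5-5 to 7.71 for Krtap13. Krtap3-1 lay between 5.51 and 7.96 (median 6.51) in non-anagen back, between 6.25 and 11.99 (median 9.10) in anagen back and between 10.18 and 12.88 (median 11.80) in tail. Krtap6-2 ranged from 3.10 to 5.65 (median 3.79), from 3.37 to 10.61 (median 8.10) and from 8.70 to 10.93 (median 10.22), and Krtap5-5 from 3.83 to 5.81 (median 4.62), from 4.38 to 10.28 (median 7.83) and from 5.18 to 11.67 (median 9.74). Krtap6-2 had every tail above non-anagen back, whereas 1 tail of Krtap5-5 overlapped with it. At the other end, Krtap6-3, of the same subfamily as Krtap6-1, did not pass (0.24, SE 0.45, adjusted p = 0.639), and Krtap1-3, Krtap1-5, Krtap3-2, Krtap4-6, Krtap4-7 and Krtap14 were not called either.

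Krtap13 (probe set 10440666) was high in tail and was called neither higher nor lower in anagen than in non-anagen back. It lay between 3.44 and 4.83 (median 4.19) in non-anagen back, between 3.75 and 5.04 (median 4.24) in anagen back and between 11.16 and 12.44 (median 12.04) in tail. Back arrays of both states overlapped, with 1 anagen array, from mouse 1039, above every non-anagen array, and no tail came near either, the gap to the highest non-anagen array being 6.32. No other member had every tail above every back array, as 0.818% of all genes did. The means were 4.16 ± 0.345 (SD, n = 85), 4.25 ± 0.35 (SD, n = 14) and 12.00 ± 0.23 (SD, n = 97), and the tail difference was 7.84 (SE 0.04, adjusted p = 6.52e-206), the largest of any member. In mice 1080, 1083, 1013, 1056 and 1069, whose anagen back had 43 or 44 members above non-anagen back, Krtap13 stood at 4.39, 4.51, 3.75, 4.60 and 3.93. Its neighbour Krtap13-1 (probe set 10436746) rose in both sites. It lay between 3.49 and 5.73 (median 4.31) in non-anagen back, between 4.35 and 10.77 (median 6.89) in anagen back and between 8.45 and 11.23 (median 10.14) in tail, with differences of 2.73 (SE 0.26) and 5.73 (SE 0.08).

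Krtap31-1 and Krtap31-2 showed the opposite order. Krtap31-1 (probe set 10381107) lay between 3.30 and 5.10 (median 4.19) in non-anagen back, between 3.83 and 9.06 (median 5.54) in anagen back and between 3.45 and 6.47 (median 4.52) in tail. For this gene 9 of 14 anagen arrays exceeded every non-anagen array, but only 20 of 97 tails did. Krtap31-2 (probe set 10381113) ranged from 4.16 to 6.04 (median 4.96), from 4.82 to 9.82 (median 6.47) and from 4.23 to 8.79 (median 5.60), with 9 anagen arrays and 26 tails above non-anagen back. The difference in anagen back was 2.04 (SE 0.22, adjusted p = 3.62e-13) for Krtap31-1 and 1.84 (SE 0.20, adjusted p = 2.51e-12) for Krtap31-2. In tail both passed the p threshold but not the size limit, at 0.39 (SE 0.08, adjusted p = 4.03e-06) and 0.80 (SE 0.12, adjusted p = 1.83e-10). Directly compared, tail was below anagen back by -1.62 (SE 0.25, adjusted p = 8.15e-09) and -1.02 (SE 0.32, adjusted p = 0.00263). Within the 14 mice the values were -1.68 (adjusted p = 0.00372) and -1.13 (adjusted p = 0.0648), so that the call for Krtap31-2 was lost there. It was also lost without the tails of mice 1080 and 1084 (-0.99), and when the 5 arrays least like their group were omitted (-0.63), namely the anagen backs of mice 1039, 1080 and 1083, the non-anagen back of mouse 1002 and the tail of mouse 1069. Their neighbours in the order of members on chromosome 11, Krtap4-16 and Krtap17-1, were called higher in tail than in anagen back over all arrays (1.40 and 1.28) but not within mice.

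**Figure D4:**
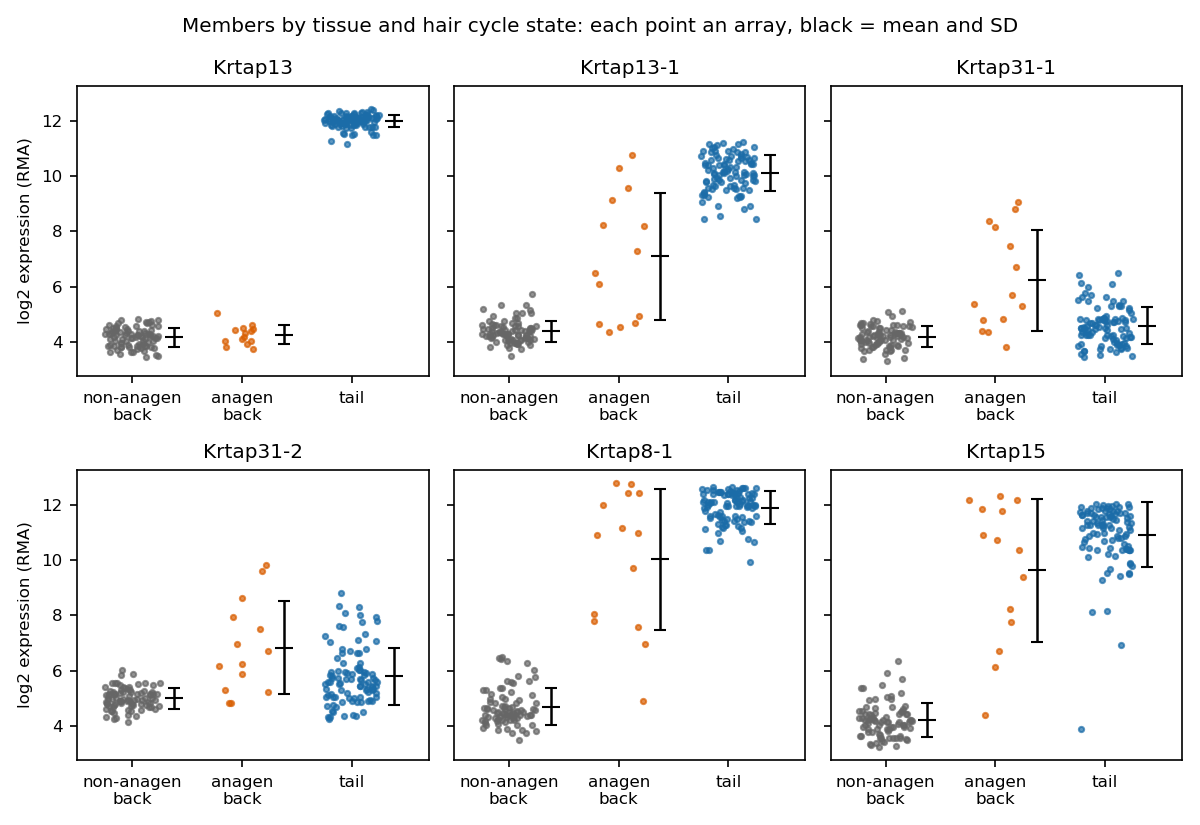
Log2 expression of 6 members in every array of non-anagen back, anagen back and tail (points), with the mean and SD beside them in black. Krtap13 is separate in tail and low in both kinds of back skin, Krtap31-1 and Krtap31-2 reach higher in anagen back than in tail, and Krtap8-1 and Krtap15 are high in most anagen arrays and in nearly all tails.

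Tails were also divided by the hair cycle label of the same mouse's back, 14 with anagen and 82 with non-anagen back skin, to ask whether the members in tail followed the state of the back. No gene, member or other, reached an adjusted p under 0.05 (0 of 18820 genes, 0%, with limma), and at an unadjusted p under 0.05 there were 27 members and 796 genes in all. The estimates of all 45 members were below 0, or of all but 1 with arrays scaled to the same median or quantile normalized again, with the largest for Krtap6-3 (-1.13, SE 0.39), Krtap19-1 (-0.84, SE 0.31), Krtap11-1 (-0.84, SE 0.33), Krtap19-9b (-0.81, SE 0.32) and Krtap24-1 (-0.75, SE 0.33), each with an adjusted p of 1. Of all genes, 54.8% had estimates above 0. The members were measured in the same tails, so their signs are not separate observations. The low tail of mouse 1080 is among the 14 tails of mice with anagen back. Without the tails of mice 1080 and 1084, the members with an unadjusted p under 0.05 fell from 27 to 2, the median over members was -0.34 against -0.52, and 2 members were above 0. The values are anagen minus non-anagen, so negative ones are lower in tails of mice with anagen back. The difference between the anagen effect in back and that in tail was called for 43 members (0.776% of all genes), all higher in back, while Krtap13 (0.08, adjusted p = 0.853) and Krtap3-2 (1.00, adjusted p = 7.13e-07, just under the size limit) were not called. With no limit on size 44 members passed (2.57% of all genes). This difference uses back arrays of the anagen comparison again and is not a separate result.

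Few members were called between females and males, although most estimates in tail were above 0. In non-anagen back skin 1 member was called at an adjusted p under 0.05, Krtap17-1, which was 0.27 higher in females (SE 0.07, adjusted p = 0.0068), where 6.19% of all genes were called higher in females. An unadjusted p under 0.05 was reached by 5 members, or 1 with arrays scaled to the same median, and by 4990 of all 18820 genes. The next largest estimates were Krtap5-2 (0.25), Krtap5-3 (0.22), Krtap3-2 (0.18) and Krtap11-1 (0.17). In tail skin no member was called, with limma, where 1.64% of all genes were called higher and 1.2% lower in females, and 15 members had an unadjusted p under 0.05, as did 3250 of all 18820 genes. The estimates of 43 members were above 0 (42 with arrays scaled to the same median and 41 with quantile normalization again), as were those of 46.8% of all genes, the largest being Krtap6-3 (0.69, SE 0.29), Krtap19-9b (0.52), Krtap4-16 (0.50), Krtap10-10 (0.47) and Krtap4-7 (0.44). Because the members were measured in the same tails, these signs are not separate observations. Krtap20-2 had the lowest adjusted p, 0.0881 (0.37, SE 0.13). Krtap6-3 ranged from 3.87 to 5.65 (median 4.63) in non-anagen back, from 3.59 to 12.57 (median 8.58) in anagen back and from 5.23 to 11.70 (median 8.75) in tail, the widest tail range by SD of any member, and Krtap19-9b from 3.12 to 5.30 (median 4.23), from 4.13 to 10.65 (median 6.99) and from 4.54 to 10.06 (median 8.25).

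The genes that act with the members in the follicle were counted in the same fits. Of 12 hair shaft keratins, whose filaments the members embed, 10 were called higher in anagen back than in non-anagen back, 12 in tail and 11 in tail over anagen back. Of all genes, 0.68%, 3.94% and 3.32% were called higher, in the same order. Krt31, a keratin of the shaft cortex, was higher by 3.28 in anagen back and 5.12 in tail. Krt84, another hair keratin, was higher by 1.33 in anagen back and 8.17 in tail. Its tails lay between 12.78 and 13.27, with an SD of 0.08, and its anagen backs between 3.80 and 9.21. Which cells of the whole tail skin made it was not tested. Of 10 inner root sheath genes 9 were called higher in anagen back and 9 in tail, but none in tail over anagen back, where the median difference was -0.19. With no limit on size 3 of the 10 were higher in tail than in anagen back, among them Krt25 (0.93) and Krt73 (0.91), and 2 were lower, Tchhl1 (-0.97) and Krt72 (-0.81). By that rule 39.8% of all genes were higher and 36% lower, so these counts do not set the sheath genes apart. Of 15 regulators of the hair matrix and shaft 5 were called higher in anagen back, 10 in tail and 6 in tail over anagen back. With no limit on size 13 were higher and 2 lower in tail than in non-anagen back, against 43.8% and 43.5% of all genes. Prr9 moved further than the regulators given next, with means of 6.20 in non-anagen back, 9.56 in anagen back and 10.87 in tail. Hoxc13, a homeodomain factor of the shaft, was higher by 0.92 in anagen back, short of the size limit, and by 2.36 in tail. Foxn1, which is needed for shaft keratin expression, was higher by 0.50 (adjusted p = 0.0215) and 2.44, whereas Lef1, a Wnt pathway factor of the matrix, stood at 0.44 and 0.37 and was called in neither.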

How the data were processed

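Total RNA from 196 skin samples of 100 mice was measured on mouse gene arrays, labelled from 1 ug per the labels. The deposited table holds log2 expression values from RMA, per the submitters' processing notes; its version, and whether anything else was adjusted, is not given in the sources used here, and the values were used as they stand. Probe sets naming 1 gene (21218 of 35556) were kept, the one with the highest mean standing for the 1386 genes with several. All arrays and all named genes, dim ones included, entered the fits. Genes were named from the platform annotation, and all 45 members matched RefSeq by gene ID (GRCm38.p6), the source of promoter sequences.

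All 18820 genes entered each fit (lmFit and eBayes of limma 3.58.1, R 4.3.3; two-sided), with Benjamini-Hochberg adjustment. Covariates were sex and batch for anagen against non-anagen back, for tails by back state and for the interaction, sex alone where tail met back, since batch is nested in tissue, and batch alone between sexes. Calls also needed a difference of 1 on the log2 scale, except for tails by back state and for sex. Replicates are separate mice. The fits were also run on simulated data with 1 normal spread per gene for all groups. Members vary more over anagen than over non-anagen arrays, so that run does not show how exact their p-values are. Promoter identity came from global alignment in Biopython 1.88, and figures from matplotlib 3.10.9. The members, the lists and the classes by composition were chosen with earlier results of these data known, and the classes come from textbook knowledge.

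Genes named with their values were, by rule, the member of each subfamily with the largest difference in anagen back and in tail, the members called in only one of these, the 10 largest differences between tail and anagen back, and the 5 largest of the comparisons by back state and by sex; up to 4 genes of each other list could be named. Alternatives were another scaling, the mean of probe sets, a filter on dim genes, weights per group, covariates, batch, the size limit and the replicate block. The mouse number pairs tail and back of the same animal: over 82 mice the deviations of the paired arrays from their group means correlated with a median of 0.164, against 0 with backs of other mice. The number of arrays limits the precision.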

Additional observations from a re-analysis of the deposited data

Results flagged for a closer look

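The anagen effect in back minus the anagen effect in tail, tested as an interaction over mice with both tissues, was called for 43 of the 45 members, all higher in back (0.776% of all genes). It uses back arrays of the comparison of anagen with non-anagen back again. No gene was called between tails by back state, so the interaction largely restates that comparison. Tails have no hair cycle label of their own and took that of the back of the same mouse. The 5 largest were Krtap15 (6.16), Krtap19-1 (5.79), Krtap8-1 (5.66), Krtap7-1 (5.26) and Krtap19-5 (4.82), each on the log2 scale. With mouse as a random block 43 members were called, and without the tails of mice 1080 and 1084 also 43.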

How the results depend on the processing

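The number of members called higher in anagen back stayed between 40 and 44 and that in tail between 43 and 45 under every alternative run; the interaction stayed between 42 and 44. The comparison of tail with anagen back changed most. With mouse as a replicate block, within the 14 pairs, 18 members were higher and 1 was lower, against 36 and 2; with mouse as a random block there were 35 and 2. Without the anagen arrays of mice 1014, 1020 and 1057, an alternative chosen after seeing the data like the other omissions of arrays, 18 were higher. The number lower was 1 with dim genes left out, where Krtap31-1 was not tested, without the tails of mice 1080 and 1084, and when the 5 arrays least like their group were omitted. Signs turned for Krtap6-3 in that comparison within mice (-0.72), for Krtap6-3 (-0.84), Krtap1-5 (-0.24) and Krtap14 (-0.12) without the 3 anagen arrays, and, with those 5 arrays omitted, for Krtap13 in anagen back (-0.026) and in the interaction (-0.0046). The cause was not tested. The replicate block changed no call in tail against non-anagen back, with 43 members in both block fits. Scaling arrays to the same median moved the median of all genes in that comparison to -0.14, and its counts over all genes from 742 higher and 381 lower to 560 and 529; 43 members were called either way. It left 33 members higher in tail than in anagen back.

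The number of arrays, 14 for anagen back, limits the precision. Background was not measured in the values used, and hybridisation across similar Krtap genes was not tested.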
